A study of Mus musculus with 8 samples.

Results

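The suppressor of cytokine signalling (SOCS) family was followed in cultured fibroblasts from mouse embryos (MEFs) during a response to interferon-beta (IFN-beta). The family was taken as the 8 genes Socs1 to Socs7 and Cish, chosen by symbol, and all 8 were found among the 24015 gene symbols of the count tables. The cells with IFN-beta had received 100 units/mL of the murine recombinant protein for 6 h, and the untreated cells had received none, with 2 RNA-seq libraries in each group. Both groups were wild type on a C57bl/6 background, from embryos of stage E12.5, at passages 15 to 18. Whether the replicates were separate cultures is not stated in the labels, so a p-value here sets the change against library-to-library spread that could be technical. The 4 chromatin samples of the series were not analysed here.

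SOCS proteins are feedback inhibitors of cytokine receptors. A receptor bound by its cytokine activates JAK kinases, these phosphorylate STAT transcription factors, and STATs switch on target genes that include SOCS genes. Each SOCS protein carries an SH2 domain, which binds phosphorylated tyrosines of receptors or kinases, and a C-terminal SOCS box, which recruits elongins and a cullin to mark the bound protein with ubiquitin. Socs1 and Socs3 can also block JAK kinase activity directly through a short inhibitory region. In mice, Socs1 is known as the main SOCS brake on interferon signalling.

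With IFN-beta, 2 members rose, Socs1 by 3.55-fold (95% interval 2.30 to 5.48) and Socs2 by 3.12-fold (2.49 to 3.91), as fitted by edgeR from the counts. The fitted folds of Socs3 (1.54, interval 1.19 to 2.01) and Socs7 (1.46, interval 1.16 to 1.83) did not pass the threshold once adjusted over all genes. Socs4, Socs5, Socs6 and Cish did not pass either, with intervals that included no change. No member was called lower, by edgeR, DESeq2 or limma-voom, and 0 had an unadjusted p below 0.05 in that direction. All 8 members passed the filter on low counts.

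Start-site windows were read for known binding elements. STAT dimers bind a palindrome called GAS, and the interferon-activated complex that holds Stat2 and Irf9 binds a repeat called ISRE. Whether such elements bear on the members' changes was not tested. RefSeq windows of 250 bases before to 50 after the annotated start were read for 4 members, Socs1, Socs3, Socs4 and Cish. The build of these windows was GRCm38.p6, whereas the reads were counted on mm9. They were searched on both strands for the GAS core TTCNNNGAA, which is its own reverse complement, and the ISRE core GAAANNGAA. The windows with a match are shown 5′ to 3′ on the gene's strand, with the matched letters in capitals. They lie at chr16:10785487-10785786 (minus strand) for Socs1, chr11:117969317-117969616 (minus strand) for Socs3 and chr9:107296409-107296708 (plus strand) for Cish.
Socs1: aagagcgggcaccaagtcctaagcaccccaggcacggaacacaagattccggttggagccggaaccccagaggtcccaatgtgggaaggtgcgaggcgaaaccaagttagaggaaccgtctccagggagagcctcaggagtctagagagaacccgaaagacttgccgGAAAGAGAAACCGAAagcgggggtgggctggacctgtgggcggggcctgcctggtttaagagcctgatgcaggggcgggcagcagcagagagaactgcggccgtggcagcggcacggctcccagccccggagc
Socs3: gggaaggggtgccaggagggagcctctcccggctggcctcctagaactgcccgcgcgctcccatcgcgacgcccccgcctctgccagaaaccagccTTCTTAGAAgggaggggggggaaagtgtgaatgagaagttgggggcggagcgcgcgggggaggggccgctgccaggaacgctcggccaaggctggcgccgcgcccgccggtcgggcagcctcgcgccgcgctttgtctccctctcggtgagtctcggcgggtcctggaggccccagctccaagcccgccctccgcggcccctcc
Cish: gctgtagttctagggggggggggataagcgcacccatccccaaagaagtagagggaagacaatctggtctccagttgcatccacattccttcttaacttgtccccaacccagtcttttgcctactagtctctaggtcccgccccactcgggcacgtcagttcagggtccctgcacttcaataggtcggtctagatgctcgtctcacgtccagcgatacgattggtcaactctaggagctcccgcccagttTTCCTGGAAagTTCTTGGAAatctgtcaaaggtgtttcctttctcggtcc

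The Socs1 window held 2 ISRE matches that overlap, GAAAGAGAA from -83 to -75 and GAAACCGAA from -77 to -69, counted from the annotated start, and no GAS match. The Socs3 window held 1 GAS match, TTCTTAGAA from -154 to -146, and no ISRE match. The Cish window held 2 GAS matches just past the start, TTCCTGGAA from 1 to 9 and TTCTTGGAA from 12 to 20, and no ISRE match. The Socs4 window held neither core. No window was found for Socs2, Socs5 or Socs7, and Socs6 was left out of the member windows. A GAS core occurred in 8.3% and an ISRE core in 8.56% of all 32851 windows. Of the 544 windows of genes called higher with IFN-beta, 19.3% held an ISRE core and 9.74% a GAS core. The shares were 6.5% and 6.78% of the 11066 windows of tested genes that were not called higher. Windows, not genes, were counted. The 544 came from 416 of the 574 genes called higher, and the 11066 from 8663 genes. These matches are letters in a window, not measured binding.

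The libraries held 18901845 and 20714161 gene counts with IFN-beta, and 18528685 and 24817342 untreated. Genes were compared as counts and as CPM, the count scaled to a library of 1e6 gene counts after TMM normalization, which corrects for a few genes that take up much of a library. Rn45s, Lars2 and Mir6236 together took 13.02% to 14.5% of counts with IFN-beta and 5.94% to 7.52% untreated, and a fit without them is given below. That fit and the reported one both use TMM, so the part of these RNAs in the members' values was not tested. The interferon target gene Irf1 had 95.9 and 119.6 CPM with IFN-beta, against 13.5 and 13.8 CPM untreated. Fibroblast markers summed to 6431.5 and 6069 CPM with IFN-beta and 4739 and 5238.5 untreated, and none of 10 was called. Vim led, with 2887 and 2850 CPM with IFN-beta and 2340 and 2282 untreated (log2 fold change 0.31). Not all 10 were abundant, as Lum had 46 and 20 counts with IFN-beta and 81 and 32 untreated. At an unadjusted p below 0.05, 2 of the fibroblast markers were higher and 1 was lower. Over all 12128 tested genes, 2202 passed that cut in either direction. DESeq2 and limma-voom called 0 of the fibroblast markers. Fn1 was at 0.54 and Pdgfra at -0.62. All 6 epithelial markers were too low to test, and of 6 neural and muscle markers Tubb3 (-0.32) and Map2 (-0.06) were tested and not called. The neural and muscle markers summed to 24.8 and 22.7 CPM with IFN-beta and 29.9 and 21.1 untreated, most of it from Map2. Of 11 leukocyte markers 5 were tested and 0 called by edgeR, DESeq2 or limma-voom, 1 of them higher at an unadjusted p below 0.05, with Cd68 at 0.82, Lyz2 at -1.08 and Csf1r at 0.11. Leukocyte markers summed to 16.7 to 22.01 CPM with IFN-beta and 18.6 to 24.5 CPM untreated. Cd14 gave 7.51 and 8.97 CPM with IFN-beta and 7.48 and 8.68 untreated (log2 fold change 0.03). Endothelial markers summed to 2.01 to 3.305 CPM with IFN-beta and 1.09 to 1.14 CPM untreated. Of these Cdh5 rose, with 24 and 19 counts with IFN-beta against 2 and 6 untreated, Kdr was at 1.18 and not called, and the part of such cells in the members' values was not tested.

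Socs1, whose protein binds and blocks JAK kinases at the interferon receptors, had 237 and 285 counts with IFN-beta, or 13.3 and 14.4 CPM. Untreated cells had 49 and 134 counts, or 2.55 and 5.08 CPM. Both IFN-beta libraries lay above both untreated ones, and the 4 possible ratios between a treated and an untreated library ran from 2.61 to 5.64. The log2 fold change was 1.83 ± 0.28 (SE, adjusted p = 0.0029). The untreated libraries themselves stood apart, with 1.995 times as much Socs1 in replicate 2 as in replicate 1 (95% exact interval 1.43 to 2.83, counting error only). Only 3.65% of tested genes had untreated libraries that differed by such a factor or more, whereas the IFN-beta libraries gave a ratio of 1.08 (0.907 to 1.29). Leaving out untreated replicate 2 or 1 gave a log2 fold change of 2.44 or 1.47, and Socs1 was called in both cases. In bulk RNA, more cells that respond and more transcript per cell cannot be told apart.

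Socs2, best known in mice as the brake on growth hormone signalling, had 1525 and 1756 counts with IFN-beta, or 85.4 and 88.4 CPM. Untreated cells had 589 and 664 counts, or 30.6 and 25.2 CPM. The groups were far apart, with ratios from 2.79 to 3.51 between single libraries. The IFN-beta libraries lay close together, with a ratio of replicate 2 to replicate 1 of 1.04 (exact interval 0.966 to 1.11). The same ratio of the untreated libraries was 0.822 (0.735 to 0.9205), so these differed beyond counting error. Of tested genes, 40.8% had untreated libraries that differed by such a factor or more. The log2 fold change was 1.64 ± 0.15 (SE, adjusted p = 4.3e-05). An annotated long noncoding RNA, Gm33230, overlaps Socs2 in RefSeq, and it has no row of its own in the count tables. With the strand setting not given, reads of that transcript cannot be separated from those of Socs2.

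The 95% intervals of the log2 fold changes of Socs1 (1.203 to 2.455) and Socs2 (1.32 to 1.97) overlapped. Both lay wholly above the intervals of the other 6 members, whose highest upper end was 1.09, for Cish. Ordered by fold, Socs1 ranked 259 and Socs2 ranked 283 among the 574 genes called higher, so both sat near the middle of the response. The share of tested genes called higher was 4.73% (574 of 12128), and the share called lower was 0.495% (60 genes). The members gave 2 higher and 0 lower of 8, with a median log2 fold change of 0.39, beside -0.02 over all tested genes.

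**Figure D1:**
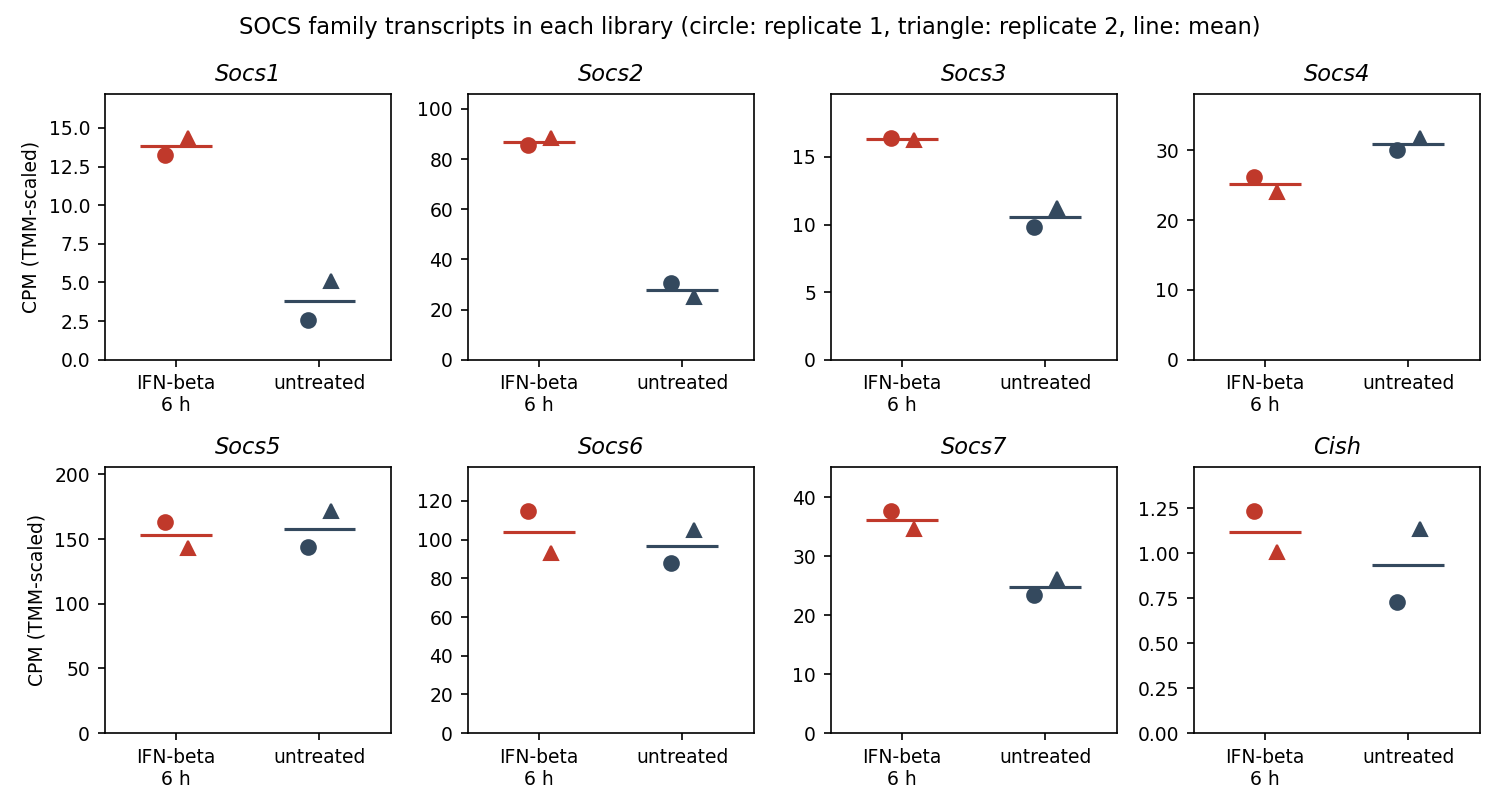
CPM of each SOCS member in each library, with IFN-beta for 6 h on the left and untreated on the right of each panel, and the y axis from 0 in each panel. Socs1 and Socs2 show the widest gaps between groups relative to their level (the largest folds), with means of 13.8 against 3.81 CPM and 86.9 against 27.9 CPM, and the untreated points of Socs1 lie apart from each other.

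Socs3, the brake on receptors that use gp130, such as that of interleukin-6, had 293 and 322 counts with IFN-beta, or 16.4 and 16.2 CPM, against 189 and 297 counts, or 9.82 and 11.3 CPM, untreated. Socs7, which binds the adaptor Nck and insulin receptor substrates, had 672 and 689 counts with IFN-beta, or 37.6 and 34.7 CPM, against 450 and 691 counts, or 23.4 and 26.2 CPM, untreated. In both genes the groups did not overlap, but such separation was common. Both IFN-beta libraries lay above both untreated ones in 23.9% of tested genes, and below them in 26.8%. The log2 fold changes were 0.63 ± 0.17 (SE, adjusted p = 0.0725) for Socs3 and 0.54 ± 0.15 (SE, adjusted p = 0.0685) for Socs7.

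These 2 genes lay close to the threshold, and their calls moved with the processing. Over 13 alternatives Socs3 was called in 3, with log2 fold changes from 0.48 to 0.73, and Socs7 in 4, with values from 0.40 to 0.63. Both passed without a count filter (adjusted p = 0.0184 and 0.0201), a setting that called 863 of 16734 genes higher and 381 lower. The reported fit called 574 and 60 of 12128. Both also passed without untreated replicate 1 (log2 fold change 0.56 and 0.49) and without untreated replicate 2 (0.73 and 0.63). With 1 untreated library left, its spread is assumed to be that of the IFN-beta pair, and calls rose over all genes too. Socs7 also passed by DESeq2 (adjusted p = 0.0489). The direction was upward in all 13 alternatives for both genes.

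Socs4, which with Socs5 is linked to turnover of the EGF receptor, was the 1 member whose IFN-beta libraries both lay below the untreated ones. It had 467 and 478 counts with IFN-beta, or 26.2 and 24.1 CPM, against 578 and 839 counts, or 30.0 and 31.8 CPM, untreated. Its log2 fold change was -0.30 ± 0.14 (SE, adjusted p = 0.310), with a 95% interval from -0.62 to 0.02. It was not called in any of the 13 alternatives, and its value was below 0 in each.

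Socs5 had the most reads of the family, 2916 and 2842 counts with IFN-beta against 2777 and 4524 untreated. In CPM these were 163 and 143 with IFN-beta and 144 and 171 untreated, so the groups overlapped. The log2 fold change was -0.04 ± 0.14 (SE, adjusted p = 0.900), with a 95% interval from -0.35 to 0.26. A long noncoding RNA, Gm30510, overlaps Socs5 in RefSeq and has no row in the count tables.

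Socs6, a ligase adaptor linked to the receptor KIT, had 2046 and 1850 counts with IFN-beta, or 115 and 93.2 CPM. Untreated cells had 1693 and 2773 counts, or 87.9 and 105 CPM. The groups overlapped, and the log2 fold change was 0.11 ± 0.15 (SE, adjusted p = 0.762, 95% interval -0.23 to 0.44). Neither Socs5 nor Socs6 was called in any alternative, and the sign of each changed in 2 of 13.

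Cish, the first SOCS gene described and a STAT5 target in blood cells, was barely detected, with 22 and 20 counts with IFN-beta against 14 and 30 untreated. That came to 1.23 and 1.01 CPM with IFN-beta and 0.727 and 1.14 CPM untreated. The groups overlapped, and the log2 fold change of 0.23 ± 0.38 (SE, adjusted p = 0.799) had an interval from -0.63 to 1.09. A change of 1 on the log2 scale thus lay inside the interval of Cish. The intervals of the deeper genes Socs4 to Socs7 ended at 0.02, 0.26, 0.44 and 0.87.

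**Figure D2:**
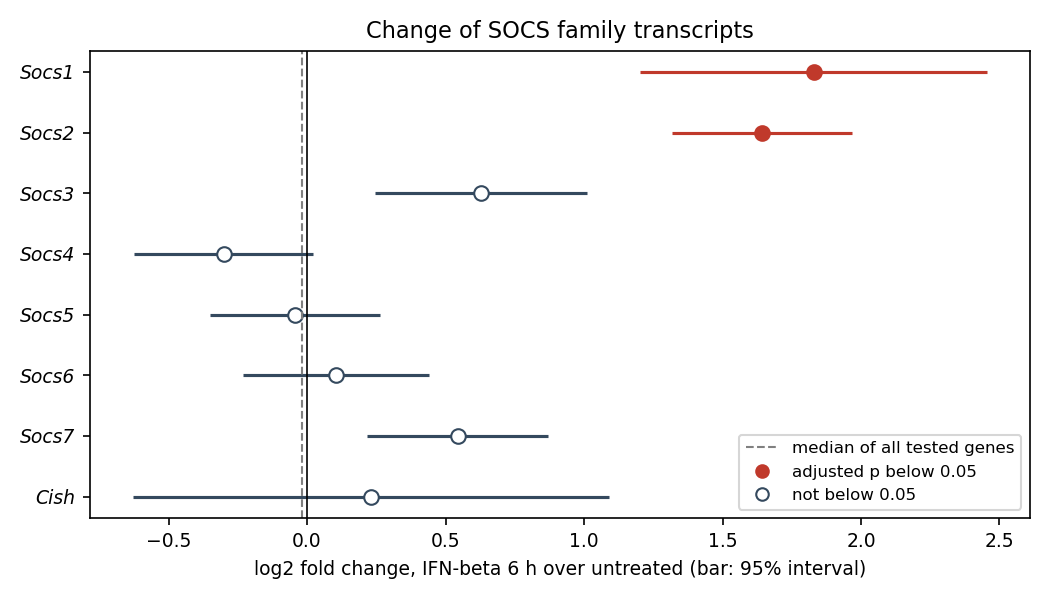
Fitted log2 fold change of each SOCS member, IFN-beta for 6 h over untreated, with its 95% interval as a bar, filled points for an adjusted p below 0.05, and a dashed line at the median of all tested genes (-0.02). Only the intervals of Socs1, Socs2, Socs3 and Socs7 lie wholly above 0, and only the first pair passed after adjustment.

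Counted together, the 8 genes had 437 ± 30.4 CPM with IFN-beta and 353 ± 33.8 CPM untreated (SD, n = 2 each). The net difference of 83.4 CPM was the sum of 59.1 for Socs2, 11.4 for Socs7, 10.0 for Socs1, 7.37 for Socs6, 5.78 for Socs3, 0.188 for Cish, -4.62 for Socs5 and -5.79 for Socs4. Without Socs1 and Socs2 the sums were 359 and 312 CPM with IFN-beta and 296 and 347 CPM untreated, which overlap. The share of family reads that came from Socs2 was 18.6% and 21.3% with IFN-beta, against 9.29% and 6.67% untreated. That of Socs1 was 2.90% and 3.46% with IFN-beta, against 0.773% and 1.35% untreated, and that of Socs5 was 35.7% and 34.5% with IFN-beta, against 43.8% and 45.5% untreated. Longer transcripts give more reads and transcript lengths were not used here, so these sums and shares do not rank the genes by level.

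The 3 genes with profiles nearest to Socs1, by Euclidean distance of log2 CPM centred over the 4 libraries among 12127 other tested genes, were Rnf31, Slco2a1 and Spsb1. Rnf31, a ubiquitin ligase that makes linear chains, lay at a distance of 0.253 with 17.8 and 17.0 CPM with IFN-beta and 3.90 and 6.56 CPM untreated. Slco2a1, a prostaglandin transporter, lay at 0.297 with 26.6 and 21.9 CPM with IFN-beta and 4.26 and 9.44 CPM untreated. Spsb1, which itself has a SOCS box, lay at 0.337 with 14.5 and 12.3 CPM with IFN-beta and 2.60 and 6.03 CPM untreated. All 3 were picked for closeness to Socs1 over these same libraries. The gap between groups and the lower value in untreated replicate 1 that they share with Socs1 thus follow from that choice. Their log2 fold changes accordingly moved with the untreated library left out, to 2.16, 2.50 and 2.36 without untreated replicate 2 and to 1.43, 1.38 and 1.17 without untreated replicate 1, in the order Rnf31, Slco2a1 and Spsb1.

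Nearest to Socs2, picked in the same way, were Dio2 (distance 0.0579), Tor1aip2 (0.0889) and Parp3 (0.125). The distances used log2 CPM with a prior count of 2. Like Socs2, Tor1aip2 and Parp3 were higher in untreated replicate 1 than in replicate 2, which follows from the choice. Tor1aip2, a nuclear envelope protein gene, had 638 and 616 CPM with IFN-beta and 230.5 and 187 CPM untreated. Parp3, a DNA repair ADP-ribosyltransferase gene, had 86.4 and 88.9 CPM with IFN-beta and 33.2 and 27.9 CPM untreated. Dio2, which activates thyroid hormone, rested on 14 and 16 counts with IFN-beta against 4 and 4 untreated. Beside 1.64 for Socs2, the fitted log2 fold change of Dio2 was 2.14. Its call (adjusted p = 0.0423) was lost in 6 of 12 alternatives, among them the fits without IFN-beta replicate 1 (0.216), IFN-beta replicate 2 (0.213) or untreated replicate 2 (0.0783). These neighbours rest on 4 libraries.

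The genes around the SOCS proteins were read from 9 lists that follow the pathway, with 104 tested genes in all, of which 16 rose and 0 fell. Calls in these lists stand beside 4.73% called higher and 0.495% called lower over all 12128 tested genes. No gene of these lists was called lower by DESeq2 or limma-voom either, and 5 were lower at an unadjusted p below 0.05. Counts at that cut in these lists stand beside 2202 of all 12128 tested genes, in either direction. Among ligands of receptors that induce SOCS genes, 3 of 9 tested genes rose, with a list median log2 fold change of 0.04. At an unadjusted p below 0.05, 3 were higher and 1 was lower. The lower one, named after its values were seen, was Igf1, with 54 and 72 counts with IFN-beta and 166 and 117 untreated (-0.95, adjusted p = 0.148). Igf1 was called lower in 3 of 13 alternatives, and leaving out untreated replicate 1 or 2 gave -0.39 or -1.37. Il6, which signals through gp130, had 436 and 528 counts with IFN-beta and 23 and 22 untreated (log2 fold change 4.67 ± 0.23 SE, adjusted p = 4.3e-07). Il15, a lymphocyte growth factor, had 223 and 292 counts with IFN-beta and 55 and 20 untreated (2.98 ± 0.42 SE, adjusted p = 0.0016). Leaving out untreated replicate 1 or 2 gave Il15 values of 4.18 or 2.25. Il7, another lymphocyte growth factor, was at 1.2, with a call (adjusted p = 0.0437) that was lost in 5 of 13 alternatives, among them DESeq2 (0.108) and the fits without IFN-beta replicate 1 (0.0862) or 2 (0.301). The other 12 ligands, Ifnb1, Osm and the growth hormone gene Gh among them, were too low to test.

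Of 17 tested receptor chains 2 rose, and the list's median was -0.01. At an unadjusted p below 0.05, 4 were higher and 2 were lower. The lower ones, named after their values were seen, were Il11ra1 (-0.64, adjusted p = 0.202) and Ifngr2 (-0.43, adjusted p = 0.155). Il13ra1, a chain of the interleukin-13 receptor, had 4034 and 5380 counts with IFN-beta and 1859 and 2448 untreated (log2 fold change 1.39 ± 0.13 SE, adjusted p = 8.8e-05). Il15ra, which presents interleukin-15, had 278 and 294 counts with IFN-beta and 41 and 91 untreated (2.42 ± 0.24 SE, adjusted p = 0.00011). The oncostatin M receptor chain gene Osmr was at 0.64 ± 0.19 (SE) and missed the threshold (adjusted p = 0.0948). It was called in 5 of 13 alternatives, among them DESeq2 (adjusted p = 0.0327), which called 3 receptor chains in all, and its value was 1.00 with untreated replicate 1 left out and 0.36 with replicate 2 left out. Of the 4 JAK kinase genes, 1 rose. Jak2 had 1823 and 2176 counts with IFN-beta and 1354 and 1770 untreated (0.62 ± 0.12 SE, adjusted p = 0.0155), and its call was lost with total library size (0.0515) and without IFN-beta replicate 1 (0.0699) or 2 (0.183). Tyk2 (0.38) and Jak1 (0.21) did not pass, and the kinase list's median was 0.30.

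Downstream of the kinases, 3 of 6 tested genes of the STAT list used here, which includes Irf9, rose, with a median of 0.36. Stat2 had 1758 and 2579 counts with IFN-beta, against 61 and 98 without it, a log2 fold change of 5.04 ± 0.20 (SE, adjusted p = 7.6e-08). Irf9 was at 3.77 and Stat3, the factor most tied to gp130 receptors and Socs3, at 0.62 ± 0.14 (SE, adjusted p = 0.0255). The Stat3 call was lost in 4 alternatives, total library size (adjusted p = 0.0660), upper quartile scaling (0.0506), and the fits without IFN-beta replicate 1 (0.171) or 2 (0.142). Among 17 tested genes often named as STAT3 or STAT5 targets 3 rose, 6 were higher at an unadjusted p below 0.05, and the median was 0.25. DESeq2 and limma-voom each called 4, with Timp1, a metalloproteinase inhibitor gene named here after its values were seen, at 0.71 ± 0.18 (SE, adjusted p = 0.0528) and called in 8 of 13 alternatives. Gadd45g, a stress response gene, was at 1.26 ± 0.17 (SE, adjusted p = 0.0012), Fgl2 at 1.36 and the transcription factor gene Myc at 0.80. Fgl2 missed the threshold with total library size (adjusted p = 0.0777) and upper quartile scaling (0.0561), and leaving out untreated replicate 2 or 1 gave 2.21 or 0.89. Myc missed it with total library size (0.0558) and without IFN-beta replicate 1 (0.0828).

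**Figure D3:**
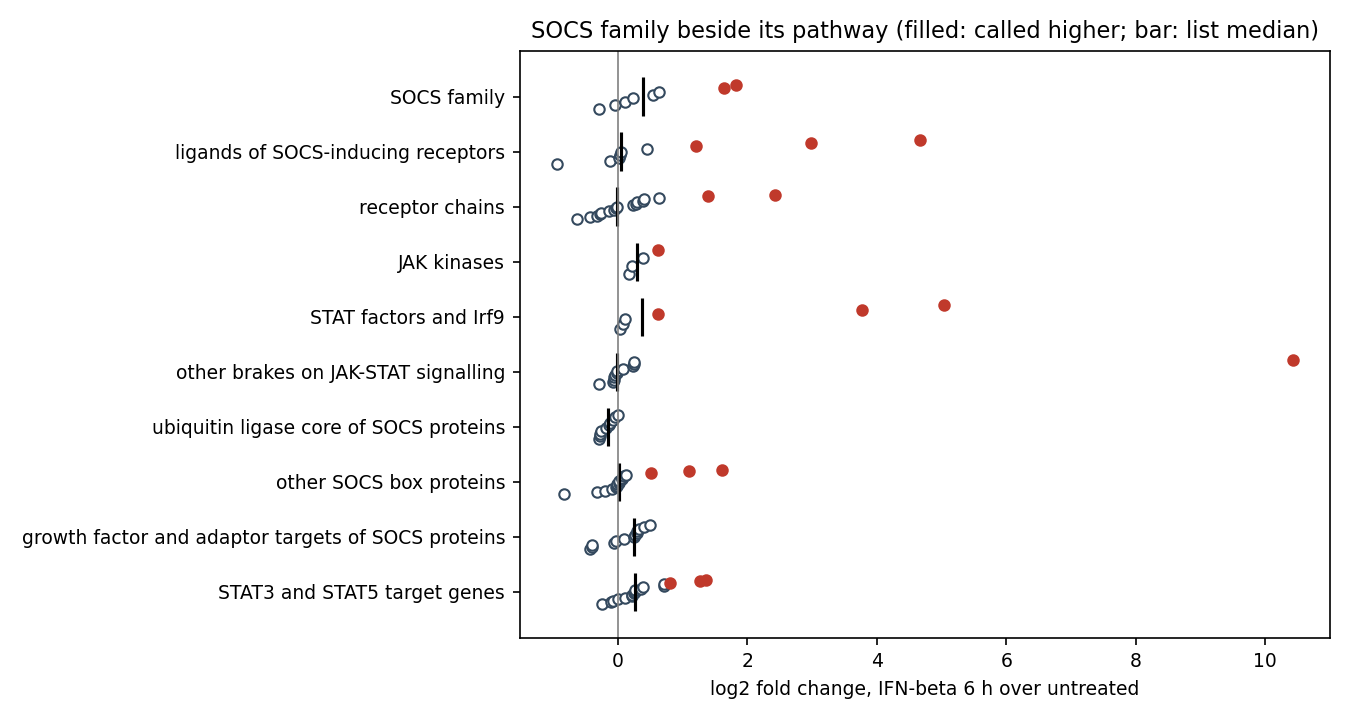
Log2 fold change, IFN-beta for 6 h over untreated, of every tested gene of the SOCS family and of 9 lists around it, with filled points for genes called higher and a bar at each list's median. Stat2, Irf9, Il6, Il15, Il15ra and Usp18 lie beyond every SOCS member. The 10 genes of the ubiquitin ligase core lie between -0.29 and 0.0011, with a median of -0.16.

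Other brakes on JAK-STAT signalling gave 1 call among 12 tested genes, with a median of -0.02. That gene was Usp18, which restrains the interferon receptor and removes ISG15, with 8812 and 9881 counts with IFN-beta and 10 and 6 untreated (log2 fold change 10.4). The phosphatase gene Ptpn11 (0.24) and the STAT inhibitor gene Pias3 (-0.29) had the next smallest p and did not pass. The ubiquitin ligase core that SOCS boxes recruit gave 0 calls among 10 tested genes, by edgeR, DESeq2 or limma-voom, and 0 at an unadjusted p below 0.05. Its median was -0.16, with elongin genes Tceb1 at -0.29 and Tceb2 at -0.28, and the ring protein gene Rnf7 at -0.29.

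Proteins that join a SOCS box to a domain other than SH2 gave 3 calls among 16 tested genes, with a median of 0.02. Asb13, with ankyrin repeats, had 345 and 352 counts with IFN-beta and 189 and 201 untreated (log2 fold change 1.09 ± 0.19 SE, adjusted p = 0.0060). Spsb1, with a SPRY domain, had 258 and 245 counts with IFN-beta and 50 and 159 untreated (1.60 ± 0.32 SE, adjusted p = 0.0143). Wsb2, with WD repeats, was at 0.51 ± 0.12 (SE, adjusted p = 0.0385), a call lost in 5 alternatives, with adjusted p = 0.501 without IFN-beta replicate 1 and 0.206 without IFN-beta replicate 2. Of 13 tested receptors and adaptors that SOCS proteins bind outside the JAK pathway, edgeR and limma-voom called 0 and DESeq2 called 1. At an unadjusted p below 0.05, 2 were higher and 2 were lower. Ptk2 was at 0.50 (adjusted p = 0.0745), Irs1 at 0.39 and Nck1 at -0.44, and the list's median was 0.25.

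The rises of Socs1 and Socs2 were called in all 13 alternative analyses, with log2 fold changes from 1.47 to 2.44 and from 1.501 to 1.81. Leaving out Rn45s, Lars2 and Mir6236 gave 1.84 for Socs1 (adjusted p = 0.0025) and did not change the call of any member. Scaling by total library size moved the median of all tested genes to -0.16, and under it Socs6 was at -0.04 in place of 0.11. The highest adjusted p over the alternatives was 0.0119 for Socs1 and 0.00019 for Socs2.

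**Figure D4:**
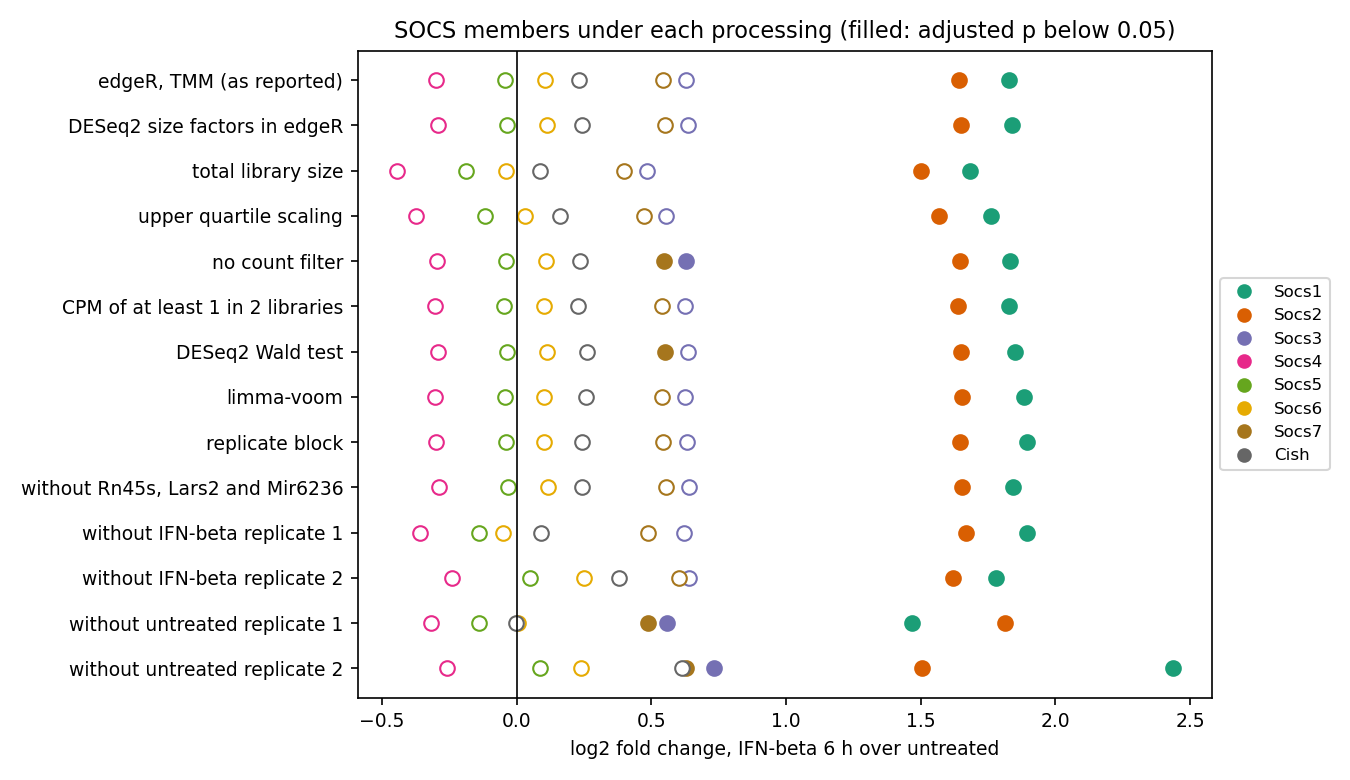
Log2 fold change of each SOCS member, IFN-beta for 6 h over untreated, on the x axis, under the reported analysis and 13 alternatives on the y axis, with filled points for an adjusted p below 0.05. Socs1 and Socs2 are filled in every line, Socs3 is filled in 3 alternatives and Socs7 in 4, and Socs1 spreads between 1.47 and 2.44 as the untreated libraries are left out.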

How the data were processed

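Counts of reads per gene symbol were deposited by the authors in 1 raw table for each RNA-seq library. Per the submitters' processing notes, TopHat2 2.0.13, HTSeq 0.7.2 and build mm9 were used; the annotation and strand setting are not given in the sources used here. The 5 summary lines (57.3% to 61.3% of records per library) were left out. Testing used edgeR 4.0.16 under R 4.3.3 (quasi-likelihood F test, TMM, default filter with minimum count 10), adjusted by Benjamini-Hochberg over all 12128 tested genes, and called at an adjusted p below 0.05. The standard error is the log2 fold change over the square root of F, and 95% intervals use the fit's degrees of freedom. CPM was computed from the counts with TMM-scaled library sizes. Intervals of replicate ratios are exact and cover counting error only. A design of 2 libraries against 2 cannot go below an exact permutation p of 0.333, so none was used. Alternatives were other scalings, filters, DESeq2 1.42.0, limma-voom (limma 3.58.1), a replicate block and each library left out. Members, lists and tests were chosen with earlier results of these data known. From each list the text names the called genes and up to 3 genes with the smallest p, and for each called member the 3 nearest profiles. Values of 1 gene are not reported here, and it was left out of the lists. Replicate libraries differed by more than sampling noise (chi-square per gene 11.5 with IFN-beta, 32.3 untreated).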

Additional observations from a re-analysis of the deposited data

How the results depend on the processing

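Counts over all genes depend on the processing more than the 2 called SOCS members do. Genes called lower numbered 349 with total library size, 128 with upper quartile scaling, 381 without a count filter, 103 by DESeq2 and 151 with the replicate block, and 24 to 1727 with a library left out, against 60 as reported; genes called higher numbered 863 without a count filter and 470 to 1885 with a library left out, against 574. SOCS members called higher numbered 4 without a count filter (Socs3 at 0.63 and Socs7 at 0.55 joined) and 2 to 4 with a library left out, and Socs7 also passed by DESeq2 at 0.55. With a library left out, log2 values ran from 0.56 to 0.73 for Socs3, 0.49 to 0.63 for Socs7, -0.14 to 0.087 for Socs5, -0.049 to 0.25 for Socs6 and -0.0037 to 0.61 for Cish. Socs6 turned to -0.041 with total library size. Pathway genes called higher numbered 10 with total library size and 12 to 34 with a library left out; those called lower numbered 1 with total library size, 2 without a count filter, 1 with the replicate block and 0 to 10 with a library left out. The causes were not tested. The replicate block changed no member's call (Socs1 at 1.89, Socs2 at 1.65); the labels do not say that the numbers mark shared cultures, and same-numbered deviations correlated at r = -0.033 over tested genes. With 1 library in a group, that library is assumed to vary like the other group. Depth limits Cish, at 14 to 30 counts per library. A spacer of 4 bases in the GAS core matched none of the windows searched, those of Socs1, Socs3, Socs4 and Cish.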
